A study of Mus musculus with 32 samples.

Results

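The protein-coding genes of the cytosolic ribosome were examined in the histone mark peak lists of *MLL-AF9* leukemias. They were chosen by name in the GENCODE M21 annotation, as symbols that begin with Rpl, Rps or Rplp and a number. The S6 kinase genes, whose symbols begin with Rps6k, and pseudogenes were left out. The rule gave 85 of 21938 protein-coding genes, 52 of the large and 33 of the small subunit by their names. Of these, 9 were on a list of tissue-restricted or duplicate paralogues and of genes that only share the name pattern, such as *Rps19bp1*, which encodes a binding partner of Rps19.

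Ribosomal proteins assemble with ribosomal RNA into the large and small ribosomal subunits, and every growing cell needs them in near-equal amounts. Their genes are short, are transcribed strongly, and many carry small nucleolar RNAs (snoRNAs) in their introns, which guide the chemical modification of ribosomal RNA. Their transcripts usually begin with a C followed by a run of pyrimidines, through which the mTOR pathway controls their translation. Trimethylation of histone H3 at lysine 4 (H3K4me3) marks active promoters, acetylation at lysine 9 (H3K9ac) and lysine 27 (H3K27ac) marks active promoters and enhancers, and H3K4me1 marks enhancers and the borders of promoters. Kat2a is a histone acetyltransferase that acts on H3K9.

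*Kat2a* WT leukemias were *Kat2a* Flox/Flox without Mx1-Cre and *Kat2a* KO leukemias were *Kat2a* Flox/Flox with 1 copy of Mx1-Cre, an interferon-inducible recombinase. Donors of both genotypes were treated with pIpC, and their lineage-depleted bone marrow was transduced with *MLL-AF9* and transplanted into lethally irradiated mice, so that host cells that survived irradiation may be present. Bone marrow at terminal disease was pooled from 5 animals for WT and 4 for KO, and each pool gave 2 replicates per mark, which makes 16 ChIP libraries, from 500000 cells for H3K27ac and H3K4me1 and 5000000 for H3K9ac and H3K4me3. The replicates are separate cell samples and chromatin preparations of the same pool, so that their spread, and every p-value below, leaves out variation between leukemias.

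The lists held 15685 to 33605 peaks per library for H3K9ac and H3K4me3. The replicate 2 lists held 29757 (WT) and 46047 (KO) peaks for H3K27ac and 45770 (WT) and 78042 (KO) for H3K4me1. The replicate 1 lists of H3K27ac and H3K4me1 held 0 to 13 peaks that reached a q-value of 0.05, and the study left out 1 replicate of each of these marks without naming it. Read depth is not known, so a mark in few or narrow peaks cannot be told apart from a mark that was detected less well, nor fewer marked cells from less mark per cell. Of 6 genes of blood and myeloid cells (*Ptprc*, *Spi1*, *Cebpa*, *Mpo*, *Itgam*, *Csf1r*), 5 or 6 had a promoter peak of H3K9ac and of H3K4me3 in each library. *Mpo* had no H3K9ac peak in KO replicate 1 and no H3K4me3 peak in either KO library, and *Itgam* had no H3K4me3 peak in WT replicate 2. None of *Cd3e*, *Alb*, *Ins2*, *Myh6*, *Neurod1* and *Krt5*, which mark other cells, had a promoter peak of either mark in any of these libraries.

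A gene was counted as marked when a peak overlapped the interval from 1 kb upstream to 500 bp downstream of any of its transcription start sites (TSS). By this measure 81 of the 85 ribosomal protein genes carried H3K9ac in each of the 4 libraries, and the same 81 carried H3K4me3 in each of 4. The share of all protein-coding genes was 54.4% and 52.7% in WT and 51.5% and 52.2% in KO for H3K9ac, and between 48.7% and 55.6% for H3K4me3. The difference between the genotypes was 0 genes for both marks, and an exact permutation test of 2 against 2 libraries can give no p under 0.33. No member had either mark in both WT libraries and in neither KO library, or the reverse. Among all protein-coding genes, 0.647% had H3K9ac in WT only and 0.173% in KO only by this rule, and 0.346% and 0.228% had H3K4me3 in WT only and KO only.

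The 4 genes without H3K9ac or H3K4me3 in any library were *Rpl3l*, *Rpl10l*, *Rpl39l* and *Rps27rt*. *Rpl3l* is the paralogue of *Rpl3* used in striated muscle, and *Rpl10l* and *Rpl39l* are paralogues used in the testis. *Rps27rt* is a retrotransposed copy of *Rps27* with 1 exon of 374 bp. None of the 4 had a peak of H3K27ac or H3K4me1 either. The other 5 genes of the paralogue list (*Rpl22l1*, *Rpl36al*, *Rpl7l1*, *Rps27l* and *Rps19bp1*) carried both marks in every library. Ribosomal protein genes have many near-identical copies, 292 annotated pseudogenes match the name pattern, and how the authors treated reads that map to several places is not given in the sources used here. Counts at genes with close copies are therefore uncertain.

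The sequences from 60 bases upstream of the reference TSS to 20 bases into the transcript are shown for the genes of the study's ChIP-qPCR (*Rps15*, *Rps7*) and for a marked and an unmarked gene of 2 pairs (*Rpl3* and *Rpl3l*, *Rps27* and *Rps27rt*). They were read from the GRCm38 (mm10) genome on the strand of the gene, and capitals mark the pyrimidine tract of at least 5 bases, beginning with C, whose start lies nearest to the TSS and within 10 bases of it. In order, the intervals are chr10:80292393-80292472 (plus strand), chr12:28635934-28636013 (minus), chr15:80083387-80083466 (minus), chr17:24727760-24727839 (plus), chr3:90213632-90213711 (minus) and chr9:114982720-114982799 (minus).
Rps15: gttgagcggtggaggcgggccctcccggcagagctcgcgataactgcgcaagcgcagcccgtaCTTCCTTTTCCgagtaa
Rps7: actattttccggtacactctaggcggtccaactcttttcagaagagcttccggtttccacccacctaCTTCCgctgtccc
Rpl3: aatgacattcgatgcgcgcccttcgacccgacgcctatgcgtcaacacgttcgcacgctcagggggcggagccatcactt
Rpl3l: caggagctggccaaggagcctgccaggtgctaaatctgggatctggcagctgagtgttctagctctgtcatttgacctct
Rps27: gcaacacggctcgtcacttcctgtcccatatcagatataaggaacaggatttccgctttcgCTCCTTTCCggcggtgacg
Rps27rt: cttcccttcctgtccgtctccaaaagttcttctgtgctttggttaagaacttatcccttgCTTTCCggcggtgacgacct

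In the 300 bases around the TSS, from 250 before to 50 after it, *Rps15*, *Rps7* and *Rpl3* held 21 CpG dinucleotides each and *Rps27* held 22. The unmarked *Rpl3l* held 2 and *Rps27rt* held 9. In the pairs not shown, marked *Rpl10* held 18 and unmarked *Rpl10l* 13, whereas marked *Rpl39* held 7 and unmarked *Rpl39l* 17. The marked *Rpl41* (6) and *Rpl23a* (7) also held fewer than *Rps27rt*, so low CpG content was not limited to unmarked genes. *Rps27* and *Rps27rt* shared an identical run of 38 bases that starts at the TSS of the retrogene, whereas the longest identical run of *Rpl3* and *Rpl3l* was 7 bases. Over all 85 genes the median was 20 CpG, at a ratio of 0.854 to the number that base composition would give. The medians were 12 and 0.556 over all protein-coding genes and 11 and 0.638 over the 4 unmarked genes, of which *Rpl39l* held 17 CpG.

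The motif CCGGAAG, a binding motif of ETS factors, was found on either strand in 32.9% of the members against 11.2% of all protein-coding promoters of the same length. It was also in 37.2% of the 78 promoters of the mitochondrial ribosomal protein genes (*Mrpl* and *Mrps*), which encode the ribosome of mitochondria and serve here as the closest other gene family. GGGCGG, the GC box, was in 54.1% of members and 45.4% of all promoters, and AAGATGG, the YY1 motif, in 12.9% and 6.43%. CACGTG, the E-box, was in 11.8% and 7.71%, and TATAAA in 1.18% and 2.44%. Matches of different motifs may share bases, for example AAG at the end of CCGGAAG and the start of AAGATGG. A pyrimidine tract beginning with C lay within 10 bases of the annotated TSS in 47.1% of members and 30.6% of all genes, and began exactly at the TSS in 12.9% and 2.26%. These shares are descriptions of annotated sequence and depend on how exactly the TSS is annotated, since 80 of the members have more than 1 TSS. RefSeq places the TSS of 48 of the 65 members in its GRCm38.p6 promoter table within 50 bp of the one used here. Only 16 of the 65 have the identical position and sequence, which limits the tract shares most.

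The members were compact, with a median transcript span of 3081 bp against 15582.5 bp for all protein-coding genes. Of 85 members, 29 (34.1%) held at least 1 snoRNA, compared with 1.27% of protein-coding genes. Within 1 kb upstream, 13 members had the TSS of a protein-coding gene on the other strand.

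H3K9ac peaks at the members were wider than at the typical marked gene. The median summed width of the promoter peaks was 1962 and 1979 bp in WT and 1598 and 1767 bp in KO. Over all marked protein-coding genes it was 1488 and 1526 bp in WT and 1311 and 1426 bp in KO. The typical member thus stood at the 69.8 and 69.0 percentile of marked genes in WT and at the 64.8 and 65.9 percentile in KO. The mitochondrial ribosomal protein genes stood lower, with medians of 1244.5 and 1208.5 bp in WT and 1052 and 1093.5 bp in KO.

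The fold enrichment of the strongest promoter peak over background, as the authors' peak caller gave it, had medians over members of 16.3 and 16.6 in WT and 13.3 and 16.3 in KO for H3K9ac. Over all marked genes these were 10.7 and 11.1 in WT against 9.61 and 11.6 in KO. For H3K4me3 the members had median widths of 1694 and 1017 bp in WT and 1170 and 1442 bp in KO, against 1272, 859, 991 and 1138 bp over all marked genes. The H3K4me3 libraries of a genotype differed more from each other than the genotypes did. These are comparisons of medians within each library and were not tested, since genes are not replicates.

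The extra width lay downstream of the TSS. Measured from the reference TSS, that of the principal annotated transcript, H3K9ac reached a median of 1365 and 1318 bp downstream in WT and 1129 and 1202 bp in KO. Upstream it reached 543 and 555 bp in WT and 520 and 522 bp in KO. Over all marked protein-coding genes the downstream reach was 886 and 892 bp in WT and 790 and 848 bp in KO, and the upstream reach was 532 and 572.5 bp in WT and 483 and 531 bp in KO. Members and other genes thus had a similar upstream edge and a different downstream edge.

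At 1250 bp downstream of the TSS, H3K9ac peaks covered 54 and 48 of the 85 members in WT and 26 and 39 in KO. Of the 78 mitochondrial ribosomal protein genes, 4 and 3 were covered there in WT and 2 in each KO library. The share of all protein-coding genes covered at this distance was not computed. At 500 bp, 81 members were covered in every H3K9ac library. The summit of the strongest H3K9ac peak lay at a median of 322 to 360 bp downstream in members and 212 to 220 bp downstream in all marked genes. The peaks covered a median of 46.0% and 44.1% of the transcribed span of a member in WT and 37.3% and 39.7% in KO, and of 3.50% to 4.08% of the span over all marked genes, whose transcripts are longer.

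**Figure D1:**
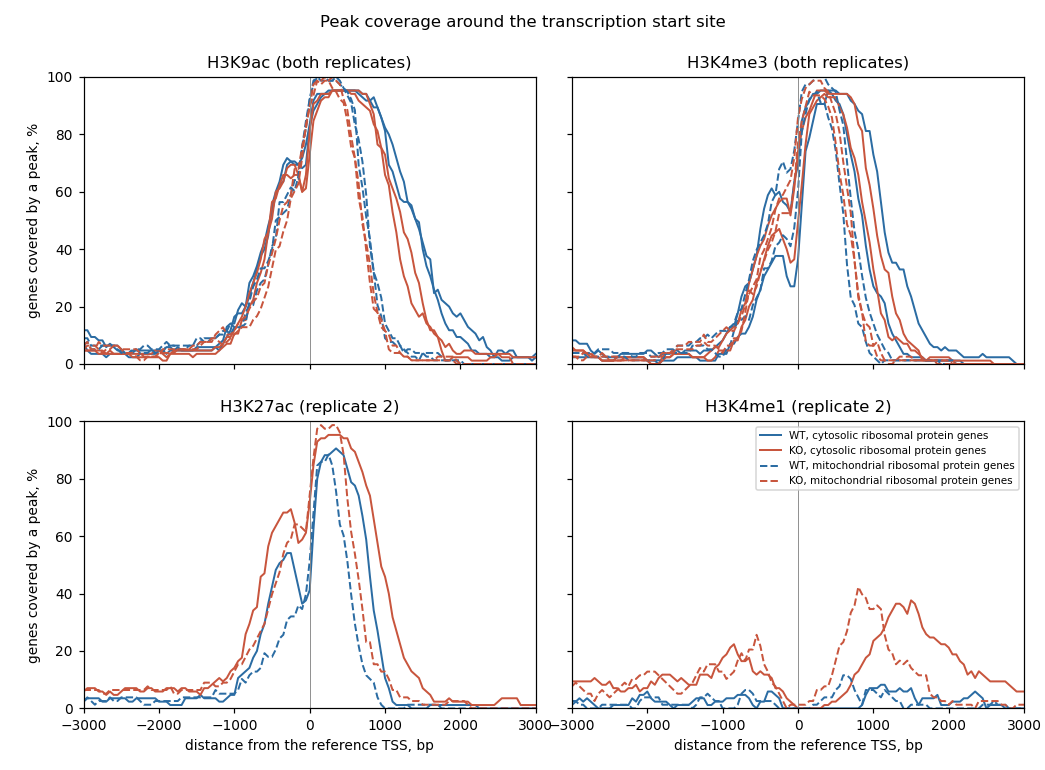
Share of genes (%) covered by a peak at each distance (bp) from the reference TSS for the 4 marks, in WT (blue) and KO (red), with 1 line per library, for the 85 cytosolic (solid) and 78 mitochondrial (dashed) ribosomal protein genes. H3K9ac at the cytosolic genes extends further downstream than at the mitochondrial genes in all 4 libraries, and H3K4me1 in KO is at 0 over the TSS of the cytosolic genes and highest beyond 1 kb.

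The downstream edge of H3K9ac was nearer to the TSS in KO. The mean over KO replicates was below the mean over WT replicates in 67 of 81 members, beside 73.8% of all genes marked at the TSS in all 4 libraries, and the median difference was -171 bp, beside -78 bp. The upstream edge differed by a median of -17 bp, beside -45.5 bp, and was nearer in 52 of 81, beside 68.8%. The medians of the downstream edge did not overlap between the genotypes, but the same held for all marked genes, and with 2 against 2 libraries no exact permutation test can give a p under 0.33. The KO lists of H3K9ac also covered less of the genome, 20.7 and 24.7 Mb against 26.8 and 28.9 Mb in WT, and the part of this in the shorter edge was not tested. H3K4me3 ended 861 to 1110 bp downstream at the typical member, with overlapping genotypes, and its downstream edge was nearer in KO in 53 of 81 members, beside 54.4% of all genes, with a median difference of -57.5 bp, beside -14 bp. Its upstream edge was nearer in KO in 38 of 81, beside 48.9%.

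**Figure D2:**
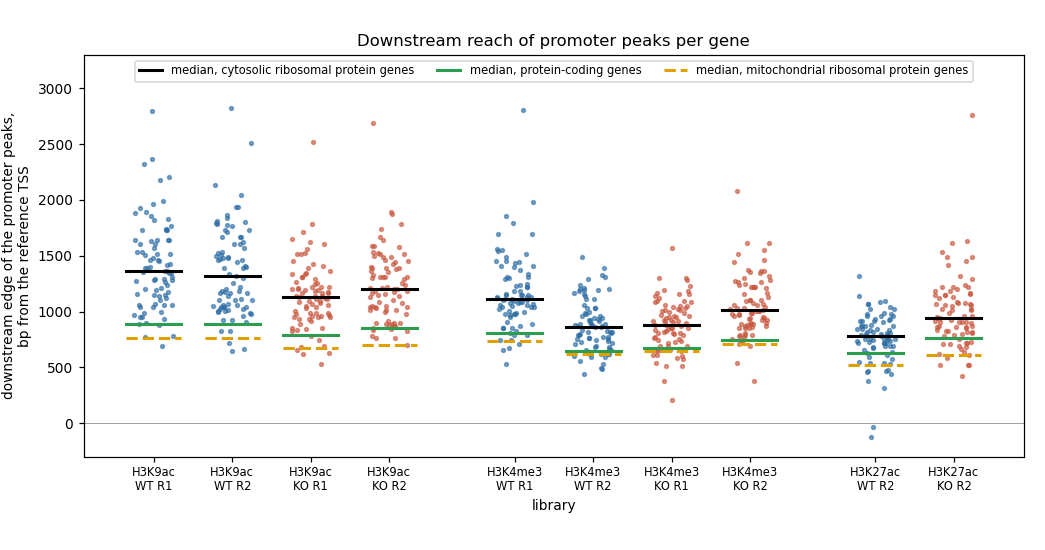
Downstream edge of the promoter peaks (bp from the reference TSS) for each ribosomal protein gene with a peak (points, WT blue and KO red), by library, with medians of the members (black), of all marked protein-coding genes (green) and of the mitochondrial ribosomal protein genes (yellow, dashed). The H3K9ac medians of the members are 1365 and 1318 bp in WT and 1129 and 1202 bp in KO, and those of all genes are 886 and 892 bp against 790 and 848 bp.

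Whether single members changed relative to the rest of the genome was tested with limma on log2 width and log2 fold enrichment, with each library centred on its median over all genes tested. Of 10837 protein-coding genes with H3K9ac in all 4 libraries, 81 were members, and 0 members and 0 genes (0%) passed an adjusted p of 0.05 in width or in fold enrichment. Of 10247 genes with H3K4me3 in all 4, 81 were members, and again 0 members and 0 genes (0%) passed in either measure. At an unadjusted p under 0.05, 4 members stood out in H3K9ac width, where 5.04% of all genes did, and 0 in H3K9ac fold enrichment, where 3.53% did. For H3K4me3 it was 1 member in width against 4.17% of genes and 1 in fold enrichment against 5.22%. The median standard error of a member was 0.15 (log2) for H3K9ac width and 0.26 for H3K4me3 width, so that small changes of single genes could not have been detected.

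The median change of the members in H3K9ac width was -0.01 on the log2 scale, KO minus WT, and -0.02 relative to the median of all genes tested, with 45 of 81 below 0. Without centring, the median of all genes moved to -0.16 and that of the members to -0.18, so that 69 of 81 members and 81.2% of all genes were narrower in KO. With centring, 48.0% of all genes were narrower in KO. The members at an unadjusted p under 0.05 were 10 without centring in place of 4, all narrower, beside 8.34% of all genes in place of 5.04%, and 0 passed the adjusted threshold. After centring, both WT libraries lay above both KO libraries in 19 of 81 members, beside 15.9% of all genes tested, and both KO above both WT in 13, beside 18.8%. In H3K9ac fold enrichment these counts were 9 members (14.6% of all genes) and 12 members (16.6%), and 43 of 81 members and 48.6% of all genes were lower in KO, or 50 members and 59.0% without centring.

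In H3K4me3 width 9 members had both WT libraries above both KO libraries and 11 the reverse, beside 16.4% and 14.6% of all genes. In H3K4me3 fold enrichment the counts were 11 and 17 members, beside 17.6% and 17.1%. The median change of the members relative to all genes was -0.02 in H3K9ac fold enrichment, -0.02 in H3K4me3 width and 0.09 in H3K4me3 fold enrichment. The median absolute log2 difference of a member in H3K9ac width was 0.17 between the WT replicates, 0.15 between the KO replicates and 0.14 to 0.21 over the 4 pairs of a WT and a KO library, a range that holds both replicate values.

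**Figure D3:**
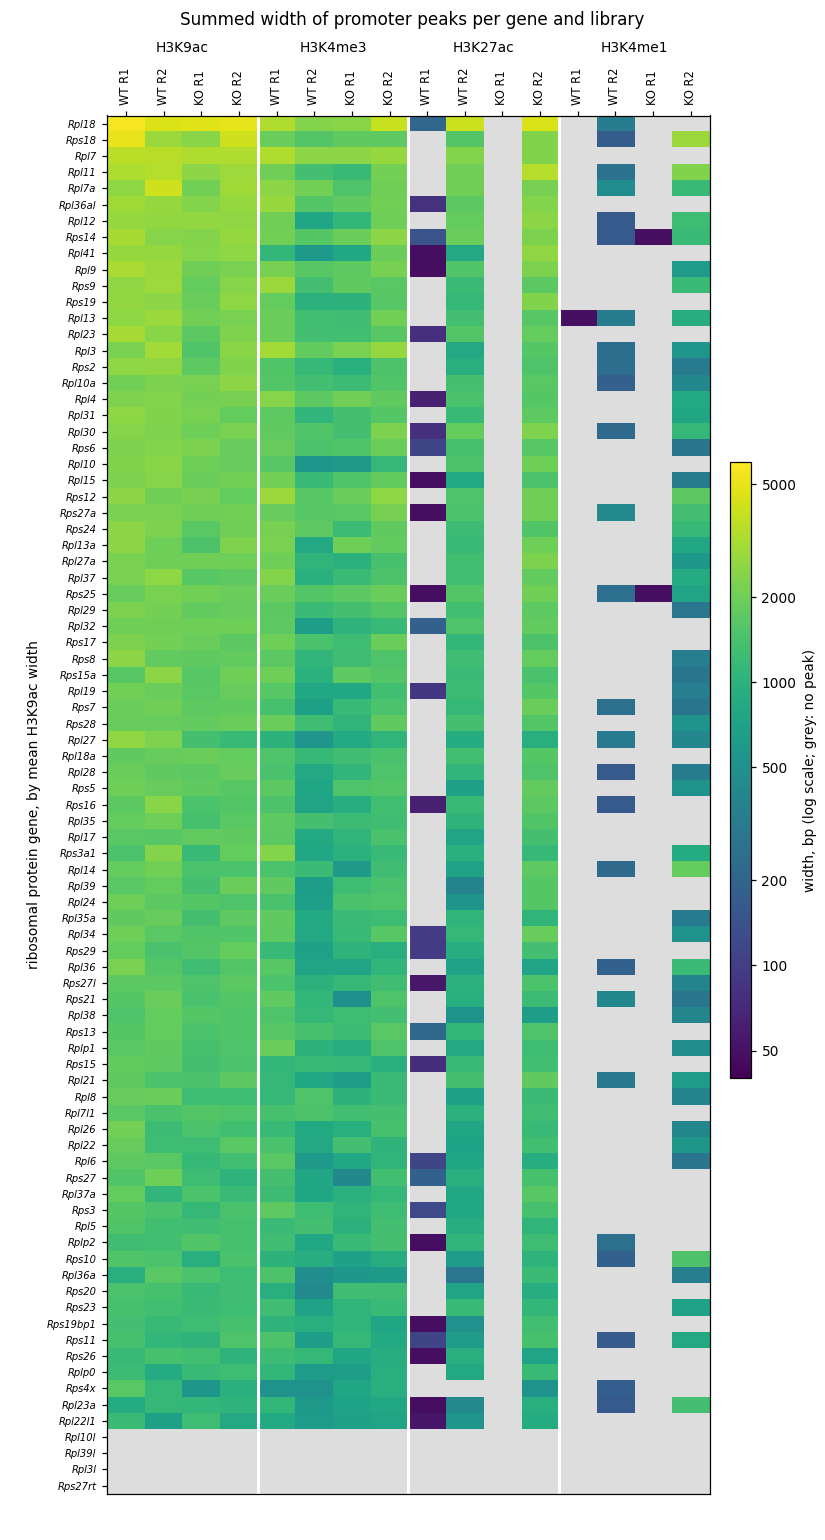
Summed width of the promoter peaks (bp, log colour scale, grey for no peak) of the 85 ribosomal protein genes (rows, by mean H3K9ac width) in the 16 ChIP libraries (columns). H3K9ac and H3K4me3 fill the first 81 rows in all 8 libraries, the last 4 rows are empty, and replicate 1 of H3K27ac and H3K4me1 shows few and narrow peaks.

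*Rps15* and *Rps7*, both of the small subunit, were marked in every H3K9ac and H3K4me3 library. Both were among the promoters where the study used ChIP-qPCR for binding of the transcription factors Myc or Gabpa, in secondary leukemias. The study chose these sites among promoter peaks that it described as depleted of H3K9ac in KO. The H3K9ac width at *Rps15* was 1796 and 1728 bp in WT and 1369 and 1447 bp in KO. Both KO values were below both WT values, with a difference of -0.15 ± 0.13 (SE, log2, centred), with an adjusted p of 0.95 in limma. Its fold enrichment was 19.1 and 19.2 in WT against 16.5 and 31.1 in KO, which overlap before centring, with a centred difference of 0.33 ± 0.35. At *Rps7* the H3K9ac width was 1962 and 2010 bp in WT and 1737 and 1757 bp in KO, a centred difference of -0.01 ± 0.13 (adjusted p = 0.99, limma). The *Rps7* fold enrichment was 24.0 and 27.1 in WT and 20.6 and 27.1 in KO, so the genotypes overlapped.

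None of the members named next passed the adjusted threshold. The 5 with the most negative difference in centred H3K9ac width were *Rpl27*, *Rps4x*, *Rps27*, *Rpl8* and *Rpl37*, and in each of them both WT libraries lay above both KO libraries. *Rpl27*, a large-subunit gene mutated in Diamond-Blackfan anemia, had widths of 2619 and 2263 bp in WT and 1371 and 1182 bp in KO, each KO value well below both WT values. Its centred log2 difference was -0.76 ± 0.17 (SE, n = 2 libraries per genotype, adjusted p = 0.73 in limma). The gene had 2 H3K9ac peaks in each WT library and 1 in each KO library, and its downstream edge lay at 2324 and 1935 bp against 1389 and 1210 bp. Its fold enrichment, 17.4 and 20.7 in WT and 12.1 and 22.6 in KO, overlapped.

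*Rps4x*, an X-linked gene of the small subunit, had H3K9ac widths of 1662 and 1136 bp in WT and 571 and 961 bp in KO, while its H3K4me3 widths were 521 and 514 bp in WT against 767 and 918 bp in KO. The differences of the marks had opposite signs, -0.72 ± 0.30 and 0.67 ± 0.37 (log2, centred), with adjusted p of 0.95 and 1.0 in limma. At *Rpl8* the H3K9ac widths were 1860 and 1892 bp in WT against 1271 and 1270 bp in KO, and at *Rpl9*, which was chosen after its values were seen, 3165 and 2797 bp in WT and 2037 and 2198 bp in KO. *Rpl27*, *Rpl8*, *Rpl9* and *Rpl10a* were the 4 members with an unadjusted p under 0.05, and of these *Rpl10a* alone had a positive difference (0.32 ± 0.12, adjusted p = 0.95), with 2058 and 2214 bp in WT and 2200 and 2528 bp in KO.

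The 5 most positive differences in centred H3K9ac width were at *Rplp0*, *Rplp2*, *Rpl10a*, *Rpl22l1* and *Rpl36a*. *Rplp0* and *Rplp2* encode parts of the ribosomal stalk, the protrusion of the large subunit that recruits translation factors. *Rplp0* had H3K9ac widths of 1233 and 875 bp in WT and 1192 and 1258 bp in KO, which overlap before centring and do not after it (0.41 ± 0.22, adjusted p = 0.95, limma). *Rplp2* had 1298 and 1307 bp in WT and 1545 and 1391 bp in KO. The third stalk gene, *Rplp1*, had 1673 and 1781 bp in WT and 1406 and 1519 bp in KO, with a difference of the other sign. The median difference of the 3 stalk genes was 0.34, and 0 of 3 passed. At *Rpl22l1* and *Rpl36a* the centred libraries of the genotypes overlapped. The sign turned at *Rpl22l1* (0.31) without WT replicate 2 (-0.10) or KO replicate 1 (-0.07), and at *Rpl36a* (0.28) without WT replicate 1 (-0.13).

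In H3K4me3 width, the most negative differences were at *Rps21*, *Rpl14*, *Rps26*, *Rps27* and *Rpl36a*, from -0.73 to -0.52 (log2, centred), and the most positive at *Rps20*, *Rps4x*, *Rpl41*, *Rpl24* and *Rpl13a*, from 0.99 to 0.46. *Rps20*, a small-subunit gene, had H3K4me3 widths of 939 and 436 bp in WT and 1294 bp in both KO libraries, so the KO values were higher than both WT values. Its centred difference was 0.99 ± 0.32 (adjusted p = 1.0, limma). The other 9 differences were smaller by over 1.5 times without 1 library. They came to -0.04 at *Rps21* and -0.19 at *Rpl14* without KO replicate 1, to 0.20 at *Rps27* without the same library, and to -0.02 at *Rpl36a* without WT replicate 1. Likewise *Rps26* came to -0.27, *Rpl24* to 0.32 and *Rpl13a* to 0.09 without WT replicate 2, *Rps4x* to 0.35 without WT replicate 1, and *Rpl41* to 0.05 without KO replicate 2. At *Rpl41*, which encodes the smallest ribosomal protein, the H3K4me3 widths of 1110 and 588 bp in WT and 788 and 1934 bp in KO overlapped. In H3K4me3 fold enrichment, *Rps6*, the substrate of the S6 kinases, was the only member with an unadjusted p under 0.05 and was chosen after its values were seen. It had 17.05 and 9.95 in WT and 5.09 and 7.84 in KO (-0.99 ± 0.34, log2, centred, adjusted p = 0.86, limma).

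**Figure D4:**
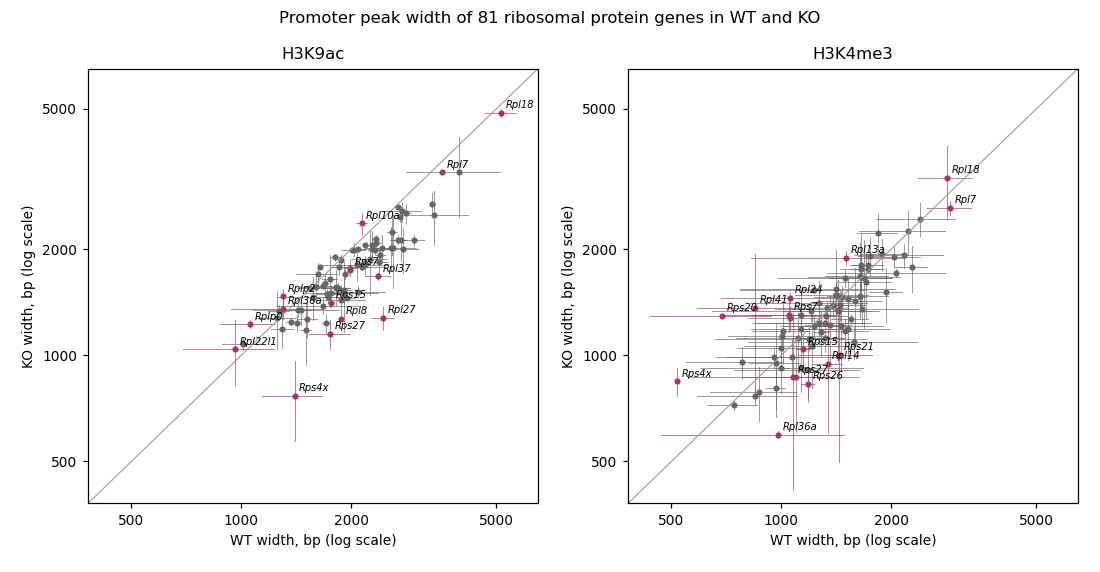
Summed promoter peak width (bp, log axes) in WT and KO for the 81 marked ribosomal protein genes, for H3K9ac and H3K4me3, before centring. Points are means of 2 libraries, lines span the 2 replicates, and the diagonal is equality, with named genes in dark red. Most H3K9ac points lie below the diagonal, as 81.2% of all genes do, and the replicate ranges of H3K4me3 are wide.

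Width differed more among the members than between the genotypes. Mean H3K9ac width over the 4 libraries ran from 1000 ± 286 bp (SD, n = 4) at *Rpl22l1*, a paralogue of *Rpl22*, to 5006 ± 453 bp at *Rpl18*. The 5 widest were *Rpl18*, *Rps18*, *Rpl7*, *Rpl11* and *Rpl7a*, and the 5 narrowest *Rpl22l1*, *Rpl23a*, *Rps4x*, *Rplp0* and *Rps26*. At *Rpl18* the widths were 5644 and 4639 bp in WT against 4732 and 5009 bp in KO, so the genotypes overlapped. *Rpl7* had the least variable summed width of the 5 widest, with 3567 and 3529 bp in WT and 3330 and 3274 bp in KO.

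The order of the members was largely kept between libraries. Spearman's rho of H3K9ac width over 81 members was 0.78 between the WT and 0.83 between the KO replicates, and that of H3K4me3 width was 0.62 and 0.72. H3K4me3 fold enrichment kept no such order, with rho of 0.07 between the WT and 0.29 between the KO replicates. The members of a library share its depth, and these values are descriptions. For H3K4me3 the widest were *Rpl18* (3016 ± 742 bp), *Rpl7*, *Rpl3*, *Rps12* and *Rpl36al*, and the narrowest *Rps4x* (680 ± 198 bp), *Rpl22l1*, *Rpl36a*, *Rpl23a* and *Rplp0*. *Rpl18* and *Rpl7* were thus among the widest, and *Rps4x*, *Rpl22l1*, *Rpl23a* and *Rplp0* among the narrowest, for both marks.

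The median summed width was larger in members with a protein-coding neighbour on the other strand, but not every such member was wide. The examples that follow are from the widest members named above. *Rpl18* lies 169 bp from the TSS of *Sphk2*, *Rps18* 135 bp from that of *Vps52*, *Rpl7a* 195 bp from that of *Med22* and *Rpl36al* 74 bp from that of *Mgat2*. The 13 members with such a neighbour had a median H3K9ac width of 2237 bp and the 68 other marked members 1711 bp, at similar fold enrichments of 16.8 and 16.2. *Rps27*, 44 bp from the TSS of *Rab13*, and *Rpl35a*, 268 bp from that of *Iqcg*, had mean widths of 1452 and 1687 bp, below 1711 bp. *Rpl7* and *Rpl11* have no such neighbour. Members that host snoRNAs, all 29 of which were marked, had a median of 1964 bp and the 52 other marked members 1769 bp, with fold enrichments of 15.9 and 16.7. Large-subunit genes (1849 bp) and small-subunit genes (1808 bp) were alike in this value. These differences were not tested.

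The 4 X-linked members, *Rpl10*, *Rpl36a*, *Rpl39* and *Rps4x*, had lower H3K9ac fold enrichment than the autosomal members in each library. Their medians were 5.67 and 7.53 in WT against 5.48 and 8.88 in KO, and those of the 77 autosomal members 16.4 and 16.97 in WT and 13.8 and 17.2 in KO. *Rpl10* stood apart among them, with 13.1 and 15.6 in WT and 12.02 and 15.0 in KO. Over all marked genes the X-linked medians were 7.85 and 8.06 in WT against 7.75 and 10.1 in KO, and the autosomal ones 10.8 and 11.2 in WT and 9.63 and 11.7 in KO. X-linked genes were thus lower in these lists as a whole, and the difference was not tested.

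H3K27ac can be described only in replicate 2, with 1 library per genotype and no test. It marked 80 of 85 members in WT (44.3% of all protein-coding genes) and 81 in KO (49.8%). The gene marked in KO only was *Rps4x*, with a peak of 527 bp. The median width over marked members was 1105.5 bp in WT and 1591 bp in KO, against 983 and 1376 bp over all genes, and 77 of the 80 members with a peak in both were wider in KO, as were 92.1% of all such genes. The direction is thus the opposite of that of H3K9ac and is shared with the whole KO list, which covered 35.8 Mb against 19.7 Mb in WT. At the typical member H3K27ac reached 784.5 bp downstream in WT and 944 bp in KO, less far than H3K9ac in the same replicate number. At *Rps15* the H3K27ac width was 1160 bp in WT and 1321 bp in KO, and at *Rps7* 1120 and 1899 bp.

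H3K4me1 in replicate 2 overlapped the promoter interval of 26 members (30.6%) in WT and 51 (60%) in KO, beside 18.4% and 37.2% of all protein-coding genes. Near the reference TSS, 12 members in WT and 29 in KO had an H3K4me1 peak, and at none of them did it cover the TSS, beside 7.74% and 13.8% of all protein-coding genes with a peak there. In KO, 2 of 85 members were covered at 500 bp downstream, 20 at 1000 bp, 32 at 1500 bp and 18 at 2000 bp. The mitochondrial ribosomal protein genes reached higher coverage nearer the TSS, with 13, 27, 11 and 1 of 78 at the same distances. At these distances H3K4me1 coverage of the members was highest at 1500 bp, beyond the median downstream edge of H3K9ac and H3K4me3, and that of the mitochondrial genes at 1000 bp. In WT the mark was sparse, with 6 of 85 members covered at 1500 bp, in a list of 11.5 Mb against 42.2 Mb in KO. *Rps7* had an H3K4me1 peak in both genotypes (256 and 279 bp) and *Rps15* in neither.

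Combining replicate 2 of the 4 marks, 55 members in WT and 30 in KO had H3K4me3, H3K9ac and H3K27ac without H3K4me1 near the promoter. All 4 marks were found at 25 members in WT and 51 in KO, and 4 members had none in either genotype. The shares of these combinations over all protein-coding genes were not computed. H3K4me1 alone was at 18.4% of all protein-coding genes in WT and 37.2% in KO, so the rise is shared with the whole KO list. *Rps4x* in WT had H3K4me3, H3K9ac and H3K4me1 without H3K27ac.

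Of the 85 members, *Rpl3* and *Rps4x* had a promoter region that carried H3K9ac without H3K27ac in WT and had no such region in KO. Over all protein-coding genes with a promoter region in WT the share with such a region was 12.1%. In this scheme a promoter is an H3K4me3 region common to both replicates, H3K27ac is taken from replicate 2, and such a region is called WT-exclusive when no KO region of the same class overlaps it. The region of *Rpl3*, at chr15:80090688-80091842, lay 7859 bp upstream of the reference TSS, beside the outermost annotated TSS of the gene. It carried H3K9ac in all 4 libraries, with fold enrichments of 5.53 and 6.42 in WT and 6.94 and 8.97 in KO. The region left the class in KO because H3K27ac peaks of 1016 bp in all were listed there, while none was listed in WT.

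The region of *Rps4x*, at chrX:102188777-102189385, lay 313 bp downstream of the reference TSS. Its H3K9ac fold enrichments were 4.15 and 7.19 in WT against 5.61 and 7.90 in KO, and H3K27ac was again listed in KO (527 bp) and not in WT. At both regions H3K9ac was thus present in KO, and H3K27ac decided the class. The 79 other marked members carried both acetyl marks in WT, and all 81 carried both in KO.

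Other genes of ribosome function also carried both marks. *Fau*, *Rpsa* and *Rack1*, which encode ribosomal proteins under other names, and all 26 genes of a ribosome biogenesis list carried H3K9ac and H3K4me3 in every library. All 78 mitochondrial ribosomal protein genes had H3K9ac in every library, and 76 to 78 had H3K4me3. In limma, 0 of the 26 and 0 of the 78 passed an adjusted p of 0.05 in H3K9ac width. The count at an unadjusted p under 0.05 was 2 in each list, and the median centred change was 0.05 (log2) in each. None passed in H3K9ac fold enrichment, or in the H3K4me3 fits, in which 75 of the 78 mitochondrial genes were tested.

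The 16 members of a list of genes mutated in Diamond-Blackfan anemia, an inherited failure of red cell production that most often involves *Rps19*, were all marked by H3K9ac and H3K4me3 in every library. Their median H3K9ac width was 1861 bp and their median centred change -0.06, with 0 of 16 passing the adjusted threshold and 1, *Rpl27*, at an unadjusted p under 0.05. *Rps19* had H3K9ac widths of 2673 and 2507 bp in WT and 1926 and 2542 bp in KO, which overlap. *Rpl5*, which with *Rpl11* and the 5S RNA restrains Mdm2 and so stabilises p53, had 1554 and 1309 bp in WT and 1287 and 1401 bp in KO. *Rpl11* itself had 3259 and 3402 bp in WT and 2492 and 2886 bp in KO, among the largest summed widths of all members. These sums take in the peaks at any of its 10 annotated TSS.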

How the data were processed

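Histone marks were profiled by ChIP-seq with 50-bp single-end reads. The authors used BWA for alignment to mm10 and MACS2 for peaks, library by library, and the versions are not given in the sources used here. Each deposited list gives the fold enrichment at the summit as a ratio to background, the −log10 of the p-value, that of the q-value and a score. The lists hold no read counts, and the 16 input libraries were not analysed here. The lists hold peaks above the q-value of 0.05 that the paper states, and all were used.

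Width was the summed length, and fold enrichment the largest value, of all peaks overlapping the promoter interval by at least 1 bp. The members, gene lists and tests were chosen with earlier results of these data known. Named genes were the ChIP-qPCR genes, members without marks, the 5 widest and narrowest, the 5 largest changes in each direction of each width fit, members with a WT-exclusive region and fixed lists. limma 3.58.1 (R 4.3.3) was fitted without a replicate term to log2 values of genes with a peak in all 4 libraries, centred on the library median, with a variance trend and Benjamini-Hochberg adjustment over all genes tested. Overlaps and fits were tested on simulated data (Python 3.11.15, bedtools 2.31.1). Alternatives are given in the closing section. Some genes of the fixed lists are not reported here.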

Additional observations from a re-analysis of the deposited data

Results flagged for a closer look

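Replicate 1 of H3K27ac in WT entered no comparison, and yet it listed an H3K27ac peak at 29 of the 85 ribosomal protein genes (34.1%), compared with 12.7% of all protein-coding genes. KO replicate 1 listed a peak at 0 of 85 and at 0.47% of all protein-coding genes. The peaks had a median width of 79 bp and fold enrichment of 3.46 in WT replicate 1, and 13 of its 26791 peaks reached a q-value of 0.05. The KO replicate 1 list held 2725 peaks, of which 0 reached that q-value. The difference between these 2 libraries was not tested.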

How the results depend on the processing

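The count of members with H3K9ac or H3K4me3 was 81 in every library with a narrower window, stricter peaks or a longer overlap. With the outermost TSS the counts were 77 or 78 and with equal numbers of peaks 80 or 81, so that the difference between genotypes ranged from -0.5 to 0.5. It was 0 without each library in turn. No member passed the adjusted threshold in any of the 4 fits under any alternative, including all settings without 1 library. Without each library in turn, the centred width differences ranged from -0.10 to 0.72 at *Rpl22l1* (H3K9ac, with -0.07 without KO replicate 1), from -0.13 to 0.70 at *Rpl36a* (H3K9ac) and from -1.24 to 0.20 at *Rps27* (H3K4me3, turned without KO replicate 1), and *Rpl36a* stood at -0.16 with the outermost TSS. The cause was not tested. Over all genes, 79 passed in H3K4me3 width without WT replicate 1 and 18 without KO replicate 2, against 0 with all libraries, and 1 or 2 passed in 5 other settings of the 4 fits.

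The replicate numbers were not treated as pairs in the main fits. Deviations of same-numbered libraries correlated weakly, at 0.17 in H3K9ac width and 0.13 in H3K9ac fold enrichment. For H3K4me3 the values were -0.04 in width and -0.001 in fold enrichment. With the replicate block, the difference in members marked was 0 for both marks, 0 members passed in each fit, and 4 (H3K9ac width) and 3 (H3K4me3 width) of all genes passed. Unknown depth and 1 pool of animals per genotype limit all comparisons.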
